A study of Mus musculus with 6 samples.

Results

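Out of 27179 genes with an RPKM value (reads relative to the length of the gene and the size of the library), 8 were examined. These 8 have a part in sensing protons or in handling acid equivalents. They were taken by symbol for their function, with earlier results of these data known. They comprise the receptors Gpr65 and Gpr132, the bicarbonate transporters Slc4a7 and Slc4a2, the lactate transporters Slc16a1 and Slc16a3, their chaperone Bsg, and the carbonic anhydrase Car2. The RNA came from leukemia-initiating cells (LICs), sorted from bone marrow as YFP+Mac-1+c-Kit+, of a mouse model of acute myeloid leukemia (AML). In this model, Lin- fetal liver cells carry the MLL-AF9 fusion on a retrovirus that also encodes YFP and are transplanted into irradiated recipients, so that both groups carry the fusion. There were 3 libraries labelled Asic3-null (Asic3-/-) and 3 labelled WT (Asic3+/+), all given as C57BL/6 and 8 weeks old. Asic3 encodes a proton-gated cation channel, and the comparison asks how its loss changes the LIC transcriptome. The study's methods describe its experiments in general as biological repeats, but neither they nor the labels say which animals gave these libraries, so the p-values measure the spread between libraries, part of which may be technical.

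Leukemic cells that rely on glycolysis produce lactate and protons, and they keep a near-neutral cytoplasm by exporting both. Monocarboxylate transporters carry lactate together with a proton, sodium-bicarbonate cotransporters bring in base, chloride-bicarbonate exchangers remove it, and carbonic anhydrases interconvert carbon dioxide and bicarbonate. G protein-coupled receptors with proton-sensing histidines report the acidity outside the cell, and in myeloid cells Gpr65 does so through Gs and cAMP.

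Library sizes inferred from the values ran from 1947168 to 2381861 reads, so that a single read on 2 kb of gene amounted to 0.21 to 0.257 RPKM. Expression of Asic3 went against the genotype labels, at 9.12, 4.11 and 6.58 RPKM under the Asic3-null label and 1.22, 1.85 and 0.435 RPKM under the WT label. The table holds 1 value per gene, so it does not show whether reads fell in the deleted part. Asic3 (chr5:24413451-24417840) also lies inside the annotated span of Cdk5 (24407597-24423587), and the libraries do not mark strand. Cdk5 had 21.8, 21.4 and 23.4 RPKM under the Asic3-null label and 25.2, 16.5 and 19.3 RPKM under the WT label, which overlap. Whether the 2 genes shared reads was not tested. Directions below are therefore those of the labels. The libraries labelled Asic3-null had 46.5 to 71.9 RPKM of Xist and no read on 4 Y-linked genes, while the WT-labelled ones had at most 0.0573 RPKM of Xist and 81.4 to 118.2 RPKM of those 4 genes in sum. Sex and the genotype label cannot be told apart in these data. Itgam, which encodes the Mac-1 alpha chain used in the sort, had 12.9, 12.3 and 16.9 RPKM under the Asic3-null label and 89.5, 85.7 and 55.1 RPKM under the WT label. Kit, the other sorted marker, had 14.4, 17.9 and 20.4 RPKM against 9.09, 15.3 and 8.97 RPKM.

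Of the 8 genes, 7 passed the filter on low values (a mean of at least 1 RPKM) and were tested. Only Gpr132 passed the adjusted threshold, being lower under the Asic3-null label. That is 1 of 7, beside 403 of all 12037 tested genes (3.35%), of which 340 were called lower (2.82%) and 63 higher (0.523%). The test was limma on log2(RPKM + 1) over all 12037 genes, with Benjamini-Hochberg adjustment and a threshold of 0.05. At an unadjusted p under 0.05, Gpr132 and Gpr65 were lower and none was higher, beside 9.45% and 6.43% of all tested genes. The median log2 fold change of the 7 was -0.08, against 0.03 over all tested genes. Gpr132 was also the only one of the 8 whose groups did not overlap, where 22.6% of tested genes had groups without overlap.

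**Figure D1:**
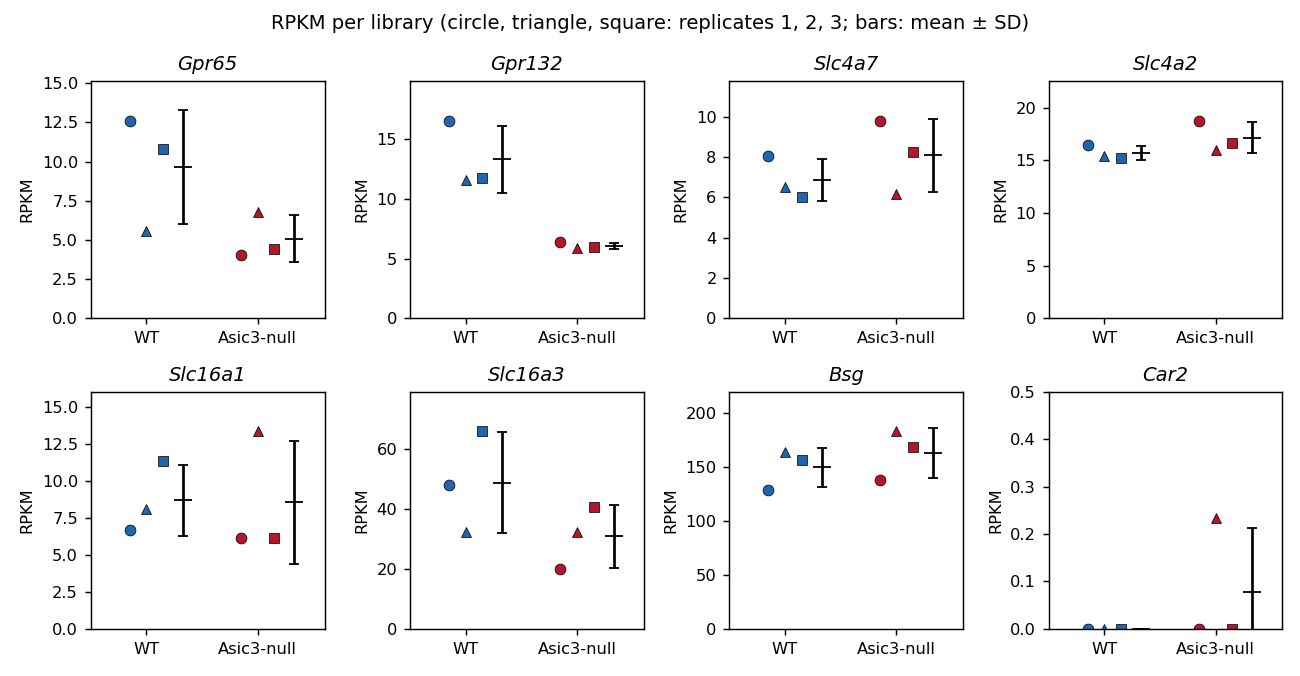
RPKM of the 8 genes in each library (circle, triangle and square for replicates 1, 2 and 3), with the mean and SD of each group of 3. All 3 Gpr132 values labelled Asic3-null lie at or below 6.37 RPKM and all 3 labelled WT at or above 11.6 RPKM, and the groups of the other 7 genes overlap.

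The promoters of both receptors and both lactate transporters are shown because these genes had the largest and the most variable differences. RefSeq gave a promoter for 6 of the 8 genes on GRCm38.p6, from 250 bases before to 50 after an annotated start, and each sequence reads 5′ to 3′ on the strand of its gene. Capitals mark matches, on either strand, to GAGGAA (an ETS core), ACGTG (the core of the hypoxia response element), TGACG (a cAMP response half-site) or CCAAT. C/EBP was searched as TTGCNNAA and had no match in these windows. The Gpr132 window (chr12:112860867-112861166, minus strand) and the Slc16a3 window (chr11:120948817-120949116, plus strand) belong to starts inside the annotated span of the gene. The Gpr65 window (chr12:98268385-98268684) and the Slc16a1 window (chr3:104638414-104638713), both on the plus strand, lie at the start of the span.
Gpr132: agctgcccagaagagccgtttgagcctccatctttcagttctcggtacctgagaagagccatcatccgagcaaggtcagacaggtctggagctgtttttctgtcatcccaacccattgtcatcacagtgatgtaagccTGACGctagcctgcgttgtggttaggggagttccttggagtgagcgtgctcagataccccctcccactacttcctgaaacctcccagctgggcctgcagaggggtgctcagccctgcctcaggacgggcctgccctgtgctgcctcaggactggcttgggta
Gpr65: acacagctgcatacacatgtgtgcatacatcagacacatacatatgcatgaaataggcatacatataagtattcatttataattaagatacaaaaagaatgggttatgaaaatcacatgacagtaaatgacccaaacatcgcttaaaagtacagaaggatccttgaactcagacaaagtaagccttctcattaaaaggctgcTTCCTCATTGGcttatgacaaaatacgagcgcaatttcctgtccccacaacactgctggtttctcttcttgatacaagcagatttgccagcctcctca
Slc16a3: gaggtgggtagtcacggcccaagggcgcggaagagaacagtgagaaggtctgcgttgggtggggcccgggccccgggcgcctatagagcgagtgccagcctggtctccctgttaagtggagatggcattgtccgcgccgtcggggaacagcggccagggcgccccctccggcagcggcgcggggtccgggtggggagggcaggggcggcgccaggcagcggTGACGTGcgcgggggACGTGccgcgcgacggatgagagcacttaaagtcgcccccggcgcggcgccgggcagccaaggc
Slc16a1: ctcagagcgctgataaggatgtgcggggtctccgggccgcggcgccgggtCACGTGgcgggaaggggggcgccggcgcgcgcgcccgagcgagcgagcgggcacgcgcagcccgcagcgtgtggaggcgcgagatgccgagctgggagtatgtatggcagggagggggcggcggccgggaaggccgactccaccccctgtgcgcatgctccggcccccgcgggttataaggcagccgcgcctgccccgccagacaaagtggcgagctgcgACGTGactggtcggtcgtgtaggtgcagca

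The Gpr132 window holds 1 TGACG, and 20.8% of 32851 promoters of the same length hold at least 1. The Gpr65 window holds the reverse complement of GAGGAA directly followed by that of CCAAT, motifs found in 28.3% and 37.4% of promoters. Both lactate transporter windows hold 2 separate ACGTG matches, against at least 1 in 19.6% of promoters. In Slc16a3 one of them overlaps a TGACG, and in Slc16a1 one lies in CACGTG, which reads the same on both strands. A match describes the letters only. The GC content was 57.7% for Gpr132, 38.3% for Gpr65, 73.3% for Slc16a3 and 73.7% for Slc16a1.

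Gpr132 (Entrez 56696, chr12:112850873-112868416 of GRCm38, minus strand) encodes a receptor of the proton-sensing family that also responds to oxidized fatty acids. It had 6.37, 5.85 and 5.94 RPKM under the Asic3-null label and 16.6, 11.6 and 11.8 RPKM under the WT label. Every library labelled Asic3-null was below every library labelled WT, and the 3 low values lay close together. Group means with their SD (n = 3 each) were 6.05 ± 0.28 and 13.3 ± 2.83 RPKM. The log2 fold change was -1.0, with a standard error of 0.19 and a 95% interval of -1.44 to -0.57 (adjusted p = 0.0260, limma). The two-sided exact permutation test gave p = 0.10, the smallest that 3 libraries against 3 can give. These values rest on 36, 34 and 34 recovered reads against 85, 55 and 68. Less RNA per cell and fewer cells of a type that expresses the gene cannot be told apart in bulk RNA.

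The fall of Gpr132 kept its sign in 16 alternative analyses, where the log2 fold change on the log scale lay between -1.11 and -0.85, but its call depended on the setting. It passed the threshold in 7 of them, including limma-voom on the recovered reads (adjusted p = 0.0185), which called 4.65% of its genes and was added after the data were seen. The call was lost with no filter on low values (limma adjusted p = 0.0593), on untransformed RPKM (0.0934) and with the replicate number as a block (0.0606). Leaving out any 1 of the 6 libraries also ended it, with adjusted p between 0.0557 (without WT replicate 3) and 0.0929 (without Asic3-null replicate 3).

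Gpr65 (TDAG8, Entrez 14744, chr12:98268635-98276722, plus strand), the Gs-coupled acid sensor of leukocytes, had 4.03, 6.81 and 4.39 RPKM under the Asic3-null label and 12.6, 5.55 and 10.8 RPKM under the WT label. WT replicate 2 lay below Asic3-null replicate 2, so the groups overlapped. Means with SD (n = 3 each) came to 5.08 ± 1.51 and 9.66 ± 3.67 RPKM, and the log2 fold change of -0.77 (standard error 0.31, 95% interval -1.46 to -0.08) did not pass the adjustment (adjusted p = 0.265, limma). The recovered reads were few, at 19, 33 and 21 against 54, 22 and 52. Without WT replicate 2 the log2 fold change was -1.09, and without WT replicate 1 it was -0.56, neither past the threshold.

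The ratio of Gpr132 to Gpr65 was 1.58, 0.860 and 1.35 under the Asic3-null label and 1.31, 2.09 and 1.09 under the WT label. The groups overlapped, and the log2 ratios differed by -0.23 between the group means (exact permutation test, two-sided p = 0.60). That difference changed sign without Asic3-null replicate 2 (0.021) or WT replicate 2 (0.033).

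**Figure D2:**
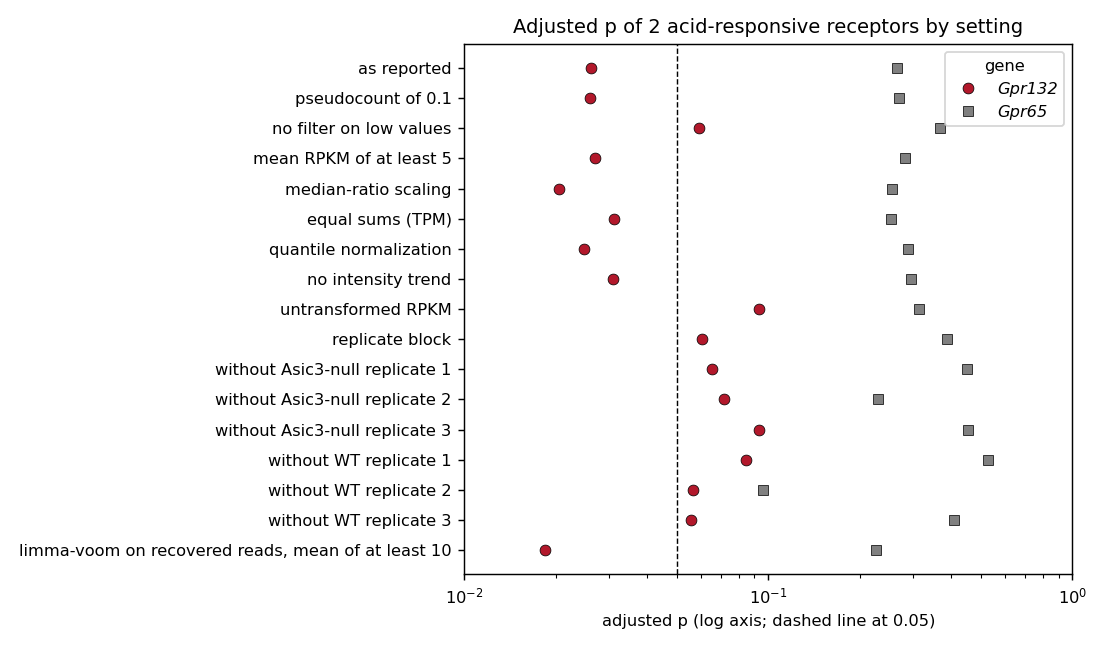
Adjusted p of Gpr132 (red circles) and Gpr65 (grey squares) in each analysis, on a log axis with the threshold of 0.05 dashed. Gpr132 lies left of the line in the reported analysis (0.0260) and in 7 of 16 alternatives, and Gpr65 lies right of it in all.

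Myeloid maturation markers differed between the same groups. Of 12 neutrophil genes, here named the granule list and led by S100a8, 11 were tested. All 11 were called lower under the Asic3-null label. The summed level of the list was 262.2 to 415.8 RPKM against 3965 to 4404 RPKM. Of 10 monocyte and macrophage genes, led by Ly6c2, 9 were tested, 4 were called lower and 8 were lower without overlap. The sums were 1300 to 1493 RPKM against 1774 to 1960 RPKM. Most of each sum was Ly6c2, at 963 to 1133 RPKM against 1252 to 1371 RPKM, which was not called (adjusted p = 0.166, limma). The log2 fold changes of the 4 called genes ran from -1.50 to -1.36, against -0.34 for Ly6c2. Over all tested genes, 2.82% were called lower and 11.4% were lower without overlap. No gene of either list was at 0 in every library. The part of these cells in the levels of Gpr132 and Gpr65 was not tested. Few genes of the lymphoid and stromal lists passed the filter, with 0 of 8 T cell, 2 of 7 B cell and 1 of 8 endothelial and stromal genes tested and none of these 3 called. Cd3e, Cd4 and Cd8a were at 0 in every library, as was Ms4a1, and the T cell list summed to 1.40 to 2.10 RPKM against 0.825 to 1.28 RPKM, low sums that did not overlap, with Trac the most abundant. The B cell list, led by Cd79b, summed to 40.1 to 47.6 RPKM against 43.3 to 49.996 RPKM. For endothelial and stromal genes, led by Pecam1 and with Kdr and Emcn at 0, the sums were 33.5 to 54.6 RPKM against 38.0 to 42.5 RPKM.

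**Figure D3:**
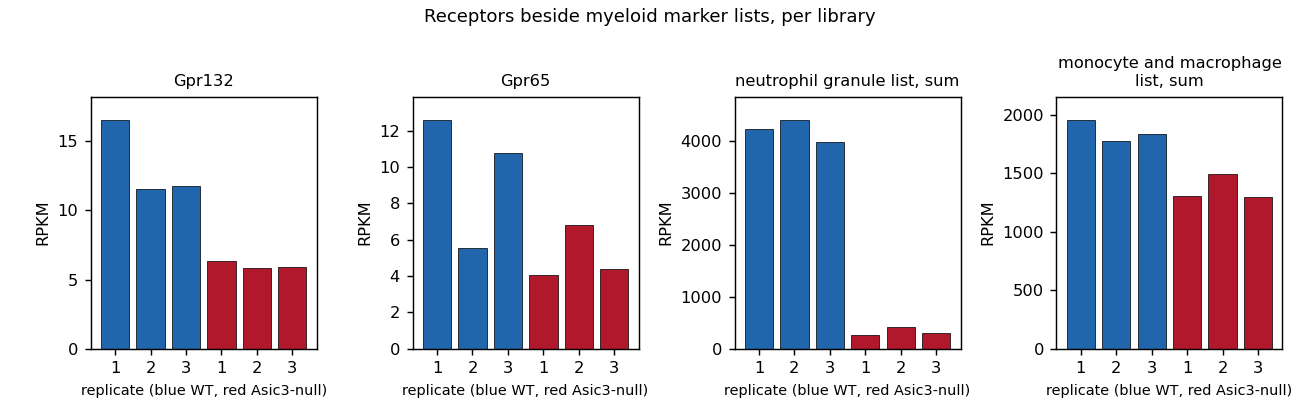
RPKM of Gpr132 and Gpr65 and summed RPKM of 2 lists in each library, WT in blue and Asic3-null in red, as labelled. The lists are the granule list of neutrophil genes and the monocyte and macrophage list. Gpr132 and both lists separate the groups, the granule list at 262.2 to 415.8 against 3965 to 4404 RPKM, and Gpr65 does not.

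The profiles nearest to that of Gpr132 over the 6 libraries were those of Gng2, E2f2 and Stag3. They were sought among 9159 genes with a mean of at least 5 RPKM. The measure was the root mean square difference of log2(RPKM + 1) centred on each gene, and it was 0.105, 0.105 and 0.109. Each of these genes was called lower as well. The measure includes the difference between the groups, so these calls follow from the choice and are no separate result. Gng2, a G protein gamma subunit, had 10.6, 8.67 and 10.5 RPKM under the Asic3-null label and 23.0, 16.6 and 19.2 RPKM under the WT label. For Gpr65 the nearest were C1rl, AV051173 and Casp6, at differences of 0.153, 0.171 and 0.191, so its profile had no neighbour as close as those of Gpr132. C1rl, a complement-related protease, had 5.45, 8.09 and 6.79 RPKM against 15.6, 8.87 and 12.3 RPKM.

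The bicarbonate transporters did not pass the test. Slc4a7 (Entrez 218756, chr14:14703011-14799944), the sodium-bicarbonate cotransporter NBCn1 that brings base into the cell, had 9.82, 6.19 and 8.24 RPKM under the Asic3-null label and 8.05, 6.53 and 6.00 RPKM under the WT label. The lowest Asic3-null value lay within the WT range. Its log2 fold change was 0.20 with a standard error of 0.22 and a 95% interval of -0.29 to 0.69 (adjusted p = 0.703, limma).

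Slc4a2 (Entrez 20535, chr5:24423761-24440947), the chloride-bicarbonate exchanger AE2 that lets base out, had 18.8, 16.0 and 16.7 RPKM under the Asic3-null label and 16.5, 15.5 and 15.2 RPKM under the WT label. The ranges overlapped and were narrow, with coefficients of variation of 8.57% and 4.19%. Its log2 fold change was 0.11 with a 95% interval of -0.22 to 0.45 (adjusted p = 0.754, limma), an interval that reaches from 0.858-fold to 1.37-fold. The gene begins 5920 bases past the end of Asic3 on chromosome 5.

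The lactate transporters differed in level and in their spread. Slc16a1 (MCT1, Entrez 20501, chr3:104638664-104658462) carries lactate with a proton in either direction. It had 6.15, 13.4 and 6.16 RPKM under the Asic3-null label and 6.66, 8.12 and 11.4 RPKM under the WT label. Asic3-null replicate 2 was the highest of all 6 and the other two of its group were the lowest, so the ranges overlapped widely. Counting alone gave exact Poisson 95% intervals of 11.3 to 15.8 RPKM for that replicate and 4.72 to 7.87 RPKM for Asic3-null replicate 1, intervals that cover counting error only and do not meet. The log2 fold change was -0.08 (standard error 0.31, 95% interval -0.78 to 0.62, adjusted p = 0.931, limma), and it turned positive when Asic3-null replicate 1 (0.09), Asic3-null replicate 3 (0.09) or WT replicate 3 (0.11) was left out.

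Slc16a3 (MCT4, Entrez 80879, chr11:120948484-120959000), the exporter of glycolytic cells, had 19.9, 32.3 and 40.8 RPKM under the Asic3-null label and 48.0, 32.5 and 66.1 RPKM under the WT label. WT replicate 2 lay below Asic3-null replicate 3 and the groups overlapped. Means with SD (n = 3 each) came to 31.0 ± 10.5 and 48.8 ± 16.8 RPKM, and the log2 fold change of -0.64 (standard error 0.30, 95% interval -1.32 to 0.05) did not pass (unadjusted p = 0.0638 and adjusted p = 0.344, limma). With 119 to 403 recovered reads per library, this gene was counted more deeply than either receptor.

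In each library Slc16a3 was above Slc16a1. Their ratio was 3.24, 2.41 and 6.63 under the Asic3-null label and 7.20, 4.0 and 5.82 under the WT label, which overlap. The log2 ratios differed by -0.56 between the group means (exact permutation test, two-sided p = 0.30).

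Bsg (CD147, Entrez 12215, chr10:79704358-79711979) encodes basigin, which escorts both of these transporters to the membrane. It had 137.8, 183.3 and 168.7 RPKM under the Asic3-null label and 129.2, 164.2 and 156.2 RPKM under the WT label. In both groups replicate 1 was lowest and the ranges overlapped. The log2 fold change was 0.12 with a standard error of 0.15 and a 95% interval of -0.22 to 0.46 (adjusted p = 0.742, limma), and it rests on 476 to 765 recovered reads per library.

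Car2 (Entrez 12349, chr3:14886269-14900770), the cytosolic carbonic anhydrase abundant in red cells and osteoclasts, was near the limit of detection and was not tested. It had 0.235 RPKM in Asic3-null replicate 2, a single recovered read, and 0 in the other 5 libraries. Over the group labelled Asic3-null, 1 read is 0.0793 RPKM, with an exact Poisson 95% interval of 0.00201 to 0.442 RPKM, and over the group labelled WT the count of 0 has an upper limit of 0.321 RPKM by the same interval. The floor of 3 reads over a group is 0.238 and 0.261 RPKM. Both groups were under it and no fold is given. Of 11 listed red cell genes, Ermap and Rhag were also at 0 in every library. The list summed to 27.3 to 33.8 RPKM under the Asic3-null label and 32.0 to 37.3 RPKM under the WT label, mostly from Tfrc, the transferrin receptor, which dividing cells of many types express.

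The order of the 8 genes by RPKM, a level per length, was the same for the first 3 in both groups and differed after them. Bsg was highest, at a mean of 163.3 RPKM under the Asic3-null label and 149.9 RPKM under the WT label, followed by Slc16a3, and neither range met that of its neighbours. Slc4a2 came next, clear of the next gene under the Asic3-null label. There it was followed by Slc16a1, Slc4a7, Gpr132 and Gpr65, whose ranges overlapped from neighbour to neighbour. Under the WT label, Gpr132 and Gpr65 stood above Slc16a1 and Slc4a7, and the ranges of neighbours from Slc4a2 to Slc4a7 overlapped. Car2 was last in both.

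Other genes of the same families gave no call. Of 88 listed, 25 were at 0 in every library and 42 were tested, and 0 passed an adjusted p of 0.05 in limma or in limma-voom. The lowest adjusted p was 0.198. At an unadjusted p under 0.05 there were 3 higher (Hvcn1, Prkaca and Prkar1a) and 3 lower (Slc9a9, Nptn and Arhgef1), of which Prkaca, Prkar1a, Slc9a9 and Nptn are named after their values were seen. Log2 fold changes of the 42 ran from -0.64 to 0.38 with a median of 0.04, and 12 of the 42 had groups without overlap, 8 higher and 4 lower, beside 11.2% and 11.4% of all tested genes.

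Among 12 other proton-sensing receptors and channels, 7 were at 0 everywhere and 2 were tested. The most abundant was Hvcn1, the voltage-gated proton channel that carries protons out of phagocytes. It had 52.0, 45.5 and 40.4 RPKM under the Asic3-null label and 29.3, 38.2 and 38.0 RPKM under the WT label. Each library labelled Asic3-null was higher, but the log2 fold change of 0.38 did not pass the adjustment (adjusted p = 0.294, limma). Gpr4, an acid receptor named here after its values were seen, had at most 0.30 RPKM.

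Of 11 sodium-proton exchangers, 6 were tested, and Slc9a8 of the Golgi was the most abundant at 20.1, 20.4 and 22.0 RPKM against 27.3, 21.8 and 17.7 RPKM, values that overlap. Of 11 other bicarbonate transporters, 2 were tested, and Slc4a8, a sodium-driven chloride-bicarbonate exchanger, had 33.2, 29.2 and 30.7 RPKM under the Asic3-null label and 36.3, 34.0 and 33.7 RPKM under the WT label. Its groups did not overlap, with a log2 fold change of -0.16 (adjusted p = 0.595, limma). Of 14 other monocarboxylate transporters and chaperones, 5 were tested. Emb, embigin, the other transporter chaperone, exceeded Bsg at 395.7, 356.3 and 368.5 RPKM against 391.1, 355.9 and 401.3 RPKM, with overlapping groups.

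Of 15 other carbonic anhydrases, 4 were tested and the highest by mean was Car9, a cell-surface enzyme known as a hypoxia target, at 6.17, 6.22 and 6.74 RPKM against 8.01, 4.46 and 5.39 RPKM. Ldha, the lactate dehydrogenase subunit that favours lactate formation, had 297.4, 424.4 and 315.3 RPKM under the Asic3-null label and 285.8, 250.4 and 410.8 RPKM under the WT label, which overlap. Of 23 genes of G protein and cAMP signalling, 21 were tested. Arhgef1, the RhoA exchange factor downstream of G12 and G13, was the most abundant at 211.1, 150.5 and 193.6 RPKM against 279.7, 239.2 and 206.5 RPKM (log2 fold change -0.39, adjusted p = 0.296, limma).

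**Figure D4:**
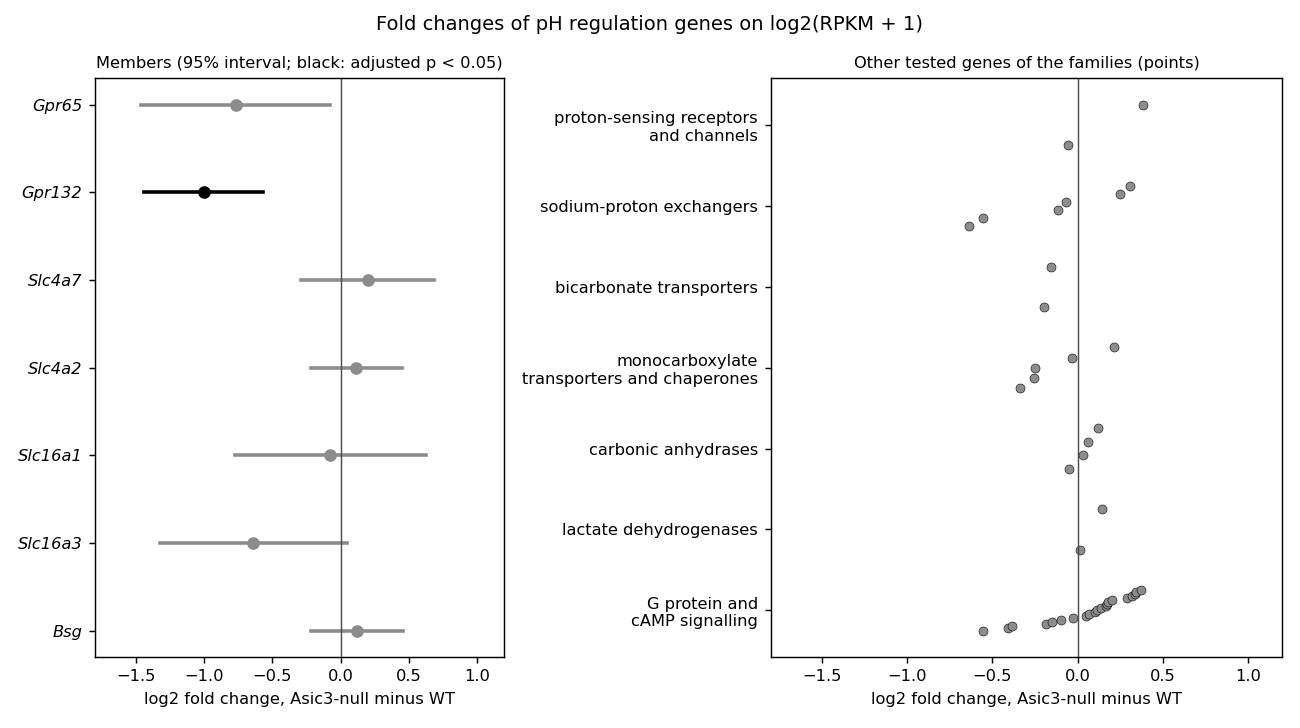
Left, log2 fold change on log2(RPKM + 1) with its 95% interval for the 7 tested genes, libraries labelled Asic3-null minus those labelled WT, in black where the adjusted p was under 0.05 (Gpr132, -1.0). Right, the log2 fold changes of the 42 other tested genes by family, from -0.64 to 0.38.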

How the data were processed

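The authors prepared libraries with TruSeq RNA v2, which does not mark strand. Per the labels' processing notes, CASAVA 1.8.2, TopHat2 2.0.12 and GRCm38 were used. They deposited 1 table of RPKM values by Entrez number. The counting tool and annotation are not given in the sources used here. Whole reads were recovered from the RPKM steps for all 16825 genes above 0, within 0.0001 reads, and 81.0 was the median per value of tested genes. Intervals from reads cover counting error only. Symbols and positions came from RefSeq GRCm38.p6 for 25275 genes.

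Genes whose RPKM averaged at least 1 were compared by limma 3.58.1 (R 4.3.3) after a log2(RPKM + 1) transform, with an intensity trend and no covariate beside genotype. This scale understates changes of low genes. Intervals are 95%. Exact permutation tests used scipy 1.17.1. The steps were tested on simulated data. The members, families and marker lists were chosen with earlier results of these data known. Genes named are the 8 members, Asic3, the most abundant and any called gene of each family, the 3 nearest profiles of the 2 members with the largest changes, and of each marker list the genes at 0 and the most abundant. Itgam, Kit, Xist and others stated as such were named after their values were seen. Cdk5 was named for its position. Certain genes are not reported here. Alternatives were a pseudocount of 0.1, no filter, a minimum mean RPKM of 5, TPM, median-ratio scaling, quantile normalization, no trend, untransformed RPKM, the replicate block and each library left out. limma-voom on recovered reads was added after the data were seen.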

Additional observations from a re-analysis of the deposited data

How the results depend on the processing

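The 7 tested members kept their direction in the other settings with all 6 libraries. Gpr132 lost its call, leaving 0 members called, with no filter on low values (log2 fold change -1.0), on untransformed RPKM (a difference of -7.26 RPKM) and with the replicate block (-1.0). Without 1 library its log2 fold change was -1.09 to -0.85 and 0 members were called. That of Slc16a1 lay between -0.41 and 0.11, and was positive without Asic3-null replicate 1 (0.09), Asic3-null replicate 3 (0.09) or WT replicate 3 (0.11). The log2 ratio of Gpr132 to Gpr65 differed by -0.43 to 0.033, positive without Asic3-null replicate 2 (0.021) or WT replicate 2 (0.033), and that of Slc16a3 to Slc16a1 by -0.98 to -0.25. Over all genes, 403 were called, 206 on untransformed RPKM, 203 to 293 without 1 library and 499 with limma-voom, and 0 of the other family genes were called in each of the 16 alternatives. The cause was not tested. Car2 had at most 1 read per library. Gpr65 rests on 19 to 54 reads per library, and its 19 reads in Asic3-null replicate 1 allow 2.43 to 6.30 RPKM by counting alone.

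Deviations of same-numbered libraries correlated at 0.0591, -0.0593 and -0.123, beside -0.0727 to 0.141 for libraries of different numbers. No effect shared by replicate number was seen. These values cannot show whether the libraries were paired by design. With the replicate block 246 genes were called, 33 higher and 213 lower (403 without it), and none was a member.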

Other observations

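Slc16a1 and Ldha, compared after their values were seen, were both highest within each group in the same library. In Asic3-null replicate 2 they had 13.4 and 424.4 RPKM, and in WT replicate 3 they had 11.4 and 410.8 RPKM. In the other 4 libraries Slc16a1 was at 6.15 to 8.12 RPKM and Ldha at 250.4 to 315.3 RPKM. Slc16a3 was also highest in WT replicate 3, at 66.1 RPKM, but within the group labelled Asic3-null its highest library was replicate 3, at 40.8 RPKM.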
